A study of Mus musculus with 8 samples.

Results

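Complex I (NADH:ubiquinone oxidoreductase) is the entry point of electrons from NADH into the respiratory chain of mitochondria, and the names of its nuclear-encoded subunits and of many of its assembly factors begin with Nduf. All genes of the deposited table whose name starts with Nduf were taken, which gave 45 of the 15433 genes listed, without regard to their values. RNA was measured in the gastrocnemius (GST) muscle of 6-month-old female mice, with 1 library per mouse, in 4 STIM1+/D84G and 4 WT libraries. STIM1+/D84G mice carry 1 mutant allele of Stim1, the Ca2+ sensor of the sarcoplasmic reticulum, with the D84G substitution in its EF hand, in all cells of the body, and the WT mice were C57BL/6 animals matched for age and sex. The libraries are of whole muscle, so fewer cells of a type and less RNA per cell cannot be told apart.

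In complex I, a peripheral arm reaches into the mitochondrial matrix. Its NADH module oxidizes NADH with a flavin and passes electrons along iron-sulfur clusters to its quinone module, where ubiquinone is reduced. A membrane arm, built around 7 subunits encoded by mitochondrial DNA, pumps protons, and accessory subunits and a set of assembly factors stabilize and build the whole. Skeletal muscle is rich in the complex, and fibers that rely on oxidative metabolism hold more mitochondria than fast glycolytic fibers.

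Most Nduf transcripts were slightly lower in STIM1+/D84G muscle on the scale of the deposited table, and a few stood apart from the rest. The assembly factor Ndufaf5 fell the most, by 32.5%, while the membrane arm subunit Ndufb3 and the assembly factor Ndufaf7 rose by 14.7% and 15.1%. These 3 genes kept their direction and passed the test under each of the 4 scalings of the libraries that were compared. Scaling to the total raised the median of all genes by 0.35 on the log2 scale, and by 0.12 without the 50 most abundant genes. For the 2 genes that rose, these scalings could therefore hardly have changed the direction. The call of Ndufaf7 was lost without D84G replicate 3. The direction of the family as a whole depended on the scaling: the median log2 fold change of the 45 genes was -0.17 on the deposited scale and 0.18 when each library was scaled to its total.

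The promoters of 4 genes are printed here, each from 250 bases before to 50 bases after the start of transcription, from RefSeq (GRCm38.p6). They belong to the gene that fell the most, to the quinone-module subunit that Ndufaf5 is known to modify in human cells, and to the 2 genes that rose. Capitals mark the matches found in a search on both strands for 5 short words of factors and boxes known from promoters of respiratory genes.
Ndufaf5 (chr2:140170396-140170695, plus strand): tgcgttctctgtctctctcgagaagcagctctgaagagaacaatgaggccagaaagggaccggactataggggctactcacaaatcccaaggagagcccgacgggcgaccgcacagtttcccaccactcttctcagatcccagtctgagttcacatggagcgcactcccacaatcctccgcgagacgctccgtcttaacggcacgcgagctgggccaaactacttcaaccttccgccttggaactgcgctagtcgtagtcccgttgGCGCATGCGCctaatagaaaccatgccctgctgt
Ndufs7 (chr10:80249199-80249498, plus strand): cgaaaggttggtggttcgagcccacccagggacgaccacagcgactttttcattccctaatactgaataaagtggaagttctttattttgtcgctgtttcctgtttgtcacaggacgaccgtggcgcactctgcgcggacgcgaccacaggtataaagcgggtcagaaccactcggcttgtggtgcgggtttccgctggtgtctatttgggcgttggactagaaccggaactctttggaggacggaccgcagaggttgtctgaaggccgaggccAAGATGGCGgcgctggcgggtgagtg
Ndufb3 (chr1:58586147-58586446, plus strand): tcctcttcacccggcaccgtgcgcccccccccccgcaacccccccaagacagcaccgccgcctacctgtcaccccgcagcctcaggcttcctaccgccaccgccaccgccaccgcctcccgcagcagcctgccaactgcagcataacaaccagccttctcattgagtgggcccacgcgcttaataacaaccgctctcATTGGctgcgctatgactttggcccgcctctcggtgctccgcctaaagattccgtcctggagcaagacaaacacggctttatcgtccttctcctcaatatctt
Ndufaf7 (chr17:78936885-78937184, plus strand): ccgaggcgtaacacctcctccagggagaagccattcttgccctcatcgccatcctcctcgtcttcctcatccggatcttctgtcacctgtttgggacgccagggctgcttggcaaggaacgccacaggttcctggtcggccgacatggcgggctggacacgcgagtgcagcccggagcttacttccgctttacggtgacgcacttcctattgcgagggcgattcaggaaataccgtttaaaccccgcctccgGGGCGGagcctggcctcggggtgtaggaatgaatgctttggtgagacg
The capitals in Ndufaf5 mark a run in which the word of nuclear respiratory factor 1 (NRF1), GCATGCGC, was read on either strand in overlapping matches. The capitals in Ndufs7 are the word searched for YY1, AAGATGGCG, those in Ndufb3 a CCAAT box read on the other strand, and those in Ndufaf7 a GC box, GGGCGG. Of the 45 genes, 39 had a promoter in the table. The NRF1 word was in 5 of the 39 (12.8%), against 3.05% of the promoters of 27025 genes, and the YY1 word was in 5 (12.8%), against 1.64%. The GC box was in 20 (51.3%), against 38.2%, and CCAAT in 13 (33.3%), against 41.1%. The word of the estrogen-related receptors, TCAAGGTCA, was in 0 of the 39 and in 0.466% of all promoters. The genes with the NRF1 word were Ndufa11, Ndufa6, Ndufa8, Ndufaf4 and Ndufaf5, of which 3 fell on the deposited scale. Those with the YY1 word were Ndufa9, Ndufc1, Ndufs4, Ndufs6 and Ndufs7, of which 4 fell on that scale. By the same test 26 of all 45 Nduf genes (57.8%) and 24.4% of all genes were lower, and a link of the words to the changes was not tested.

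The deposited values, called normalized counts here, are reads per gene after division by a size factor of the library, with no correction for gene length. Reads in listed genes numbered 27481177 to 35018732 in STIM1+/D84G and 28698738 to 33661535 in WT libraries. The 45 genes took 135292 to 161719 reads in STIM1+/D84G and 118416 to 147476 reads in WT libraries, and the least covered gene in any library, Ndufa4l2, still had 117 reads. For fold changes (STIM1+/D84G over WT), 0.1 was added to each normalized count before the log2 was taken, and limma was run across all 15433 genes with Benjamini-Hochberg adjustment and a threshold of 0.05. By this test, 3859 genes (25.0%) were higher and 3765 (24.4%) were lower in STIM1+/D84G muscle. Slow-fiber markers were higher (8 of 8, summed levels of 135678 to 206572 in STIM1+/D84G and 55241 to 79891 in WT libraries), as were macrophage markers (9 of 9, with sums of 6444 to 10890.5 in STIM1+/D84G and 2247 to 2805 in WT) and 5 of 6 fibroblast markers (sums of 45054 to 55077 in STIM1+/D84G and 23070.4 to 33251 in WT). Fast-fiber markers were lower in 7 of 8 cases on the deposited scale, with sums of 3561512 to 4329671 in STIM1+/D84G and 6725841 to 7285532 in WT libraries. With quantile normalization 2 of 8 were lower and 1 was higher, where 26.8% and 20.1% of all genes were, and their median log2 fold change was -0.05. This scaling gives genes of equal rank equal values, so it leaves little room for a change in very abundant genes, which these markers include. None of the fiber, macrophage and fibroblast markers was at 0 in a library, and their part in the Nduf values was not tested.

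On the deposited scale 26 of the 45 Nduf genes fell, 2 rose and 17 did not pass the test, where 24.4% of all genes were lower and 25.0% higher. With each library scaled to its total, 1 was lower and 28 were higher, where 4.93% of all genes were lower and 61.4% higher. On the deposited scale, the log2 fold change was negative for 41 of the 45, with a range of -0.57 to 0.20. The 26 lower genes lay between -0.57 and -0.12 on the log2 scale, which means that they fell by 8.04% to 32.5%. In 26 genes each STIM1+/D84G library was below each WT library, and in 2 each was above, or 28 of 45 without overlap either way. Over all genes, 23.0% were separated below and 23.0% above, 46.0% in all. The median was -0.17, against 0.01 for all genes and -0.07 for the 9018 genes whose mean level lay within the range of the Nduf genes, of which 36.7% were lower. The fold changes were close together, with an SD over the 45 genes of 0.14 on the log2 scale, against 0.46 for those 9018 genes. This was not particular to the family, since the 40 listed nuclear genes of respiratory complexes II to V had an SD of 0.12.

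**Figure D1:**
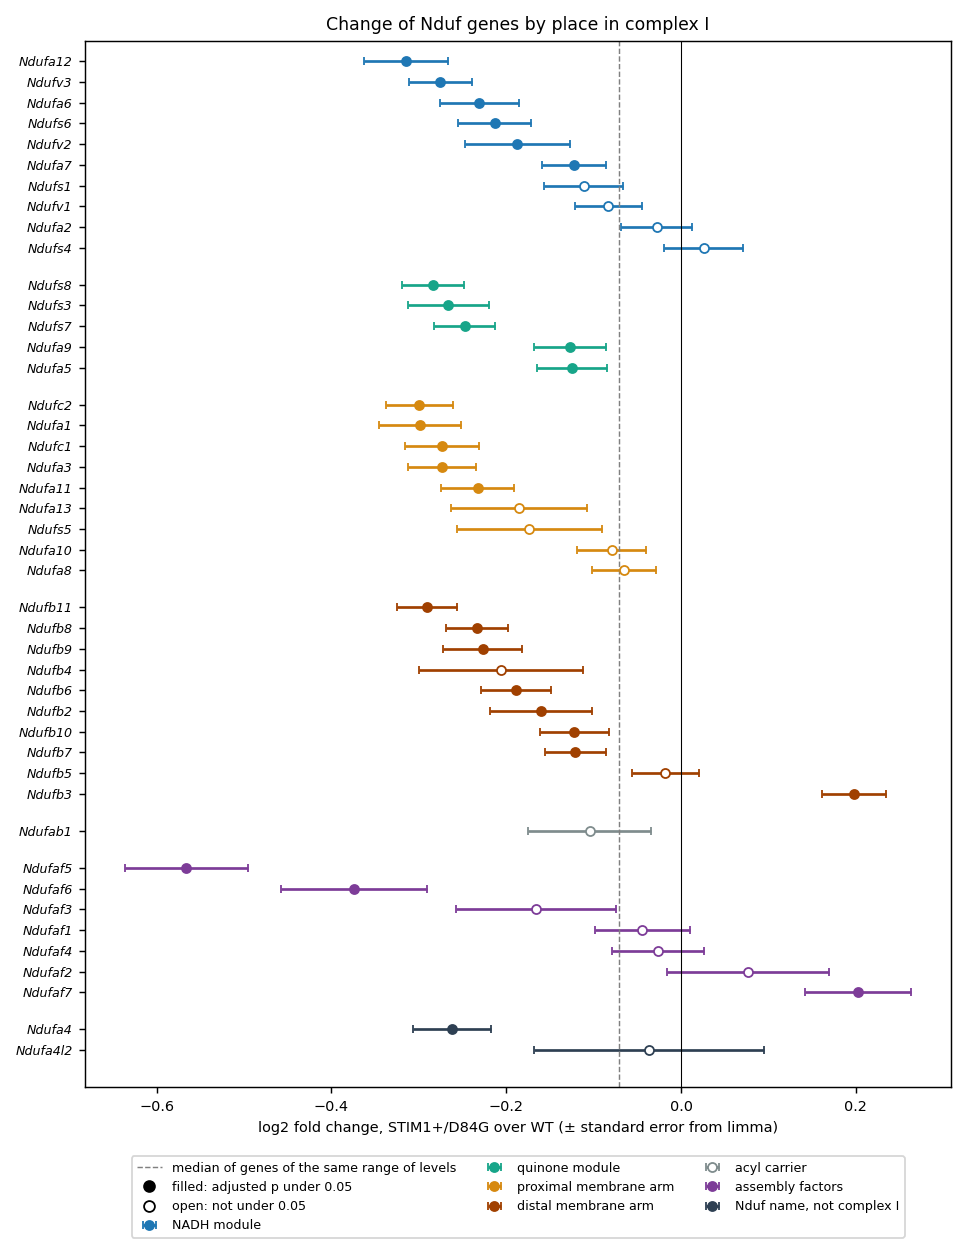
Each point is 1 Nduf gene, with its log2 fold change (STIM1+/D84G over WT, n = 4 libraries each) on the horizontal axis and the standard error from limma as the bar. Filled points passed the adjusted p of 0.05, 1 gene is not shown, and the dashed line is the median of genes of the same range of levels, at -0.07. Nearly all points lie left of 0 on the deposited scale, which is not so when libraries are scaled to their total, and the assembly factors spread from -0.57 to 0.20.

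The level of the whole family was compared with the size of the libraries. The 45 genes together counted 132954, 126704, 130424 and 133351 in the 4 STIM1+/D84G libraries, against 141746, 142721, 145993 and 150919 in the WT libraries. The groups did not overlap, with means of 130858 ± 3058 in STIM1+/D84G and 145345 ± 4136 in WT (SD, n = 4 each), so that the Nduf sum fell by 9.97%. The sum of all normalized counts fell by 21.5% in STIM1+/D84G libraries. As a share of that sum, the family was larger in STIM1+/D84G muscle, at 0.489% ± 0.0205, against 0.426% ± 0.0122 in WT (SD, n = 4 each), and these values did not overlap either. The 50 most abundant genes held 42.4% to 44.9% of the counts in STIM1+/D84G and 51.2% to 52.0% in WT libraries. Their part in the difference between the sum and the share was not tested.

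**Figure D2:**
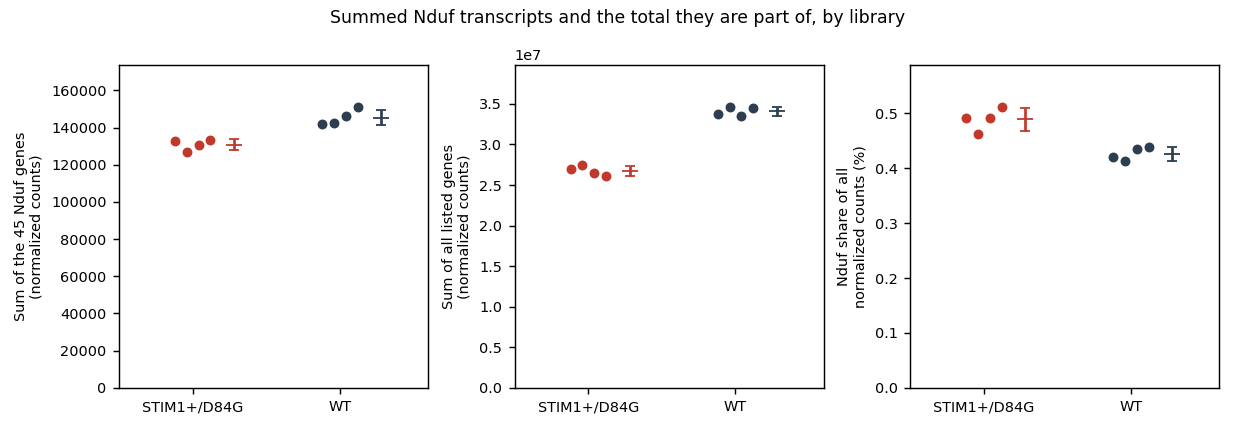
Each point is 1 library, with the mean and SD (n = 4) beside the points. The sum of the 45 Nduf genes is lower in STIM1+/D84G libraries (left panel), the sum of all 15433 genes is lower by more (middle panel), and the Nduf share of the total in percent is higher (right panel).

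Scaling to a total moved the Nduf genes together with all genes, whereas quantile normalization moved them in opposite directions. When the 50 most abundant genes were left out of the library total, the median of all genes rose by 0.12 on the log2 scale, and when the total of every listed gene was used it rose by 0.35, while the Nduf median minus that of all genes stayed at -0.187 under both. With quantile normalization the median of all genes fell by 0.08 and the Nduf median, at -0.07, differed from it by -0.0042. Without the 50 in the total, 14 Nduf genes were lower and 4 higher, where 14.5% and 34.5% of all genes were. With quantile normalization, 14 were lower and 8 higher, where 26.8% and 20.1% of all genes were.

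**Figure D3:**
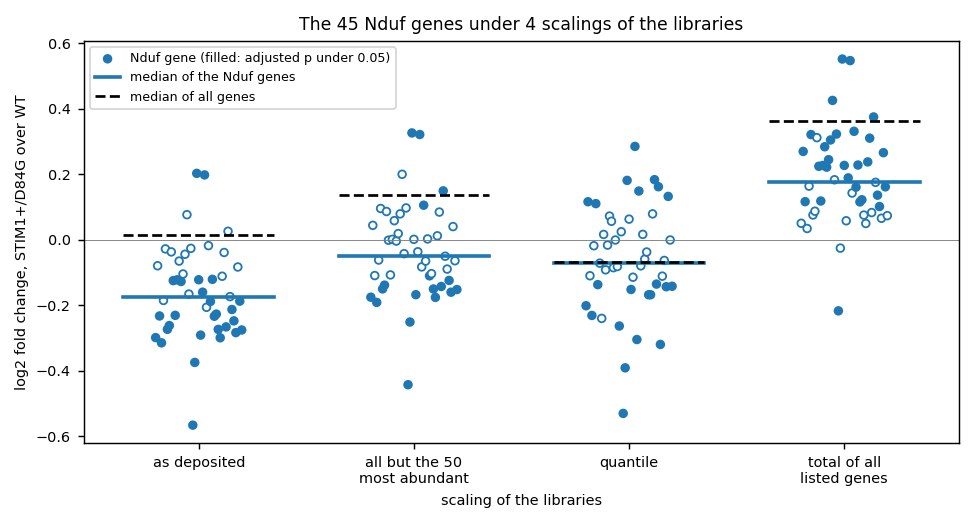
Each point is 1 of the 45 Nduf genes, with its log2 fold change (STIM1+/D84G over WT) on the vertical axis under 4 scalings of the libraries, filled where the adjusted p was under 0.05. The solid line is the median of the Nduf genes and the dashed line that of all genes. Both lines move up together from the deposited scale, where the Nduf median is -0.17, to scaling by the total, where it is 0.18, and they coincide with quantile normalization.

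The 7 core subunits of the peripheral arm carry the flavin, the iron-sulfur clusters and the quinone pocket. On the deposited scale 4 of them fell, where 24.4% of all genes were lower. When libraries were scaled to the total, none was lower and 5 were higher, where 4.93% and 61.4% of all genes were. In the NADH module, Ndufv1, which binds the flavin and NADH, had 8209, 8267, 8447 and 8602 normalized counts in STIM1+/D84G and 8638, 8715, 8835 and 9337 in WT libraries. The groups did not overlap, but the log2 fold change of -0.08 did not pass (limma adjusted p = 0.0952). Its partner Ndufv2, which holds an iron-sulfur cluster, had 4968, 4401, 4614 and 5050.1 counts in STIM1+/D84G and 5064, 5121, 5675 and 5821 in WT libraries. All 4 mutant values lay just below the WT values, with a log2 fold change of -0.19 that passed (limma adjusted p = 0.0231). This call was lost without D84G replicate 2 or 3 or WT replicate 3 or 4, where the limma adjusted p was 0.0614 to 0.0689. Ndufs1, the largest subunit of the complex, had 10137, 9922, 10071 and 10513 counts in STIM1+/D84G and 10475, 10505, 11287 and 11678 in WT libraries. Here 1 mutant library lay above 2 WT libraries, and the log2 fold change of -0.11 did not pass (limma adjusted p = 0.0613). It passed as lower with the replicate number as a block (limma adjusted p = 0.0328, within 0.0015 to 0.843 over all alternatives). It also passed as lower with DESeq2 and without WT replicate 1 or 2. The same held with a number in the names of the columns as a covariate, and within the 5 libraries that share that number. The 0.0015 came from scaling to the total, where the log2 fold change went the other way, at 0.24.

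In the quinone module, the core subunits Ndufs3, Ndufs7 and Ndufs8 fell on the deposited scale, with log2 fold changes of 0.07 to 0.10 when scaled to the total. Ndufs3, an early building block of the module, had 2286, 2152, 2170.0 and 2233 counts in STIM1+/D84G and 2479, 2735, 2816 and 2611 in WT libraries. Ndufs7, which carries the last iron-sulfur cluster before ubiquinone, had 4359.7, 4253, 4294 and 4142 counts in STIM1+/D84G and 5164, 5086, 4899 and 5092 in WT libraries. Ndufs8, which carries the clusters next to it, had 2585, 2439.8, 2526 and 2581 counts in STIM1+/D84G and 3031, 3079, 3089 and 3129 in WT libraries. In all 3 genes the 4 STIM1+/D84G libraries lay below the 4 WT libraries, with log2 fold changes of -0.27, -0.25 and -0.28 and limma adjusted p values of 0.00067, 0.000167 and 6.61e-05.

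**Figure D4:**
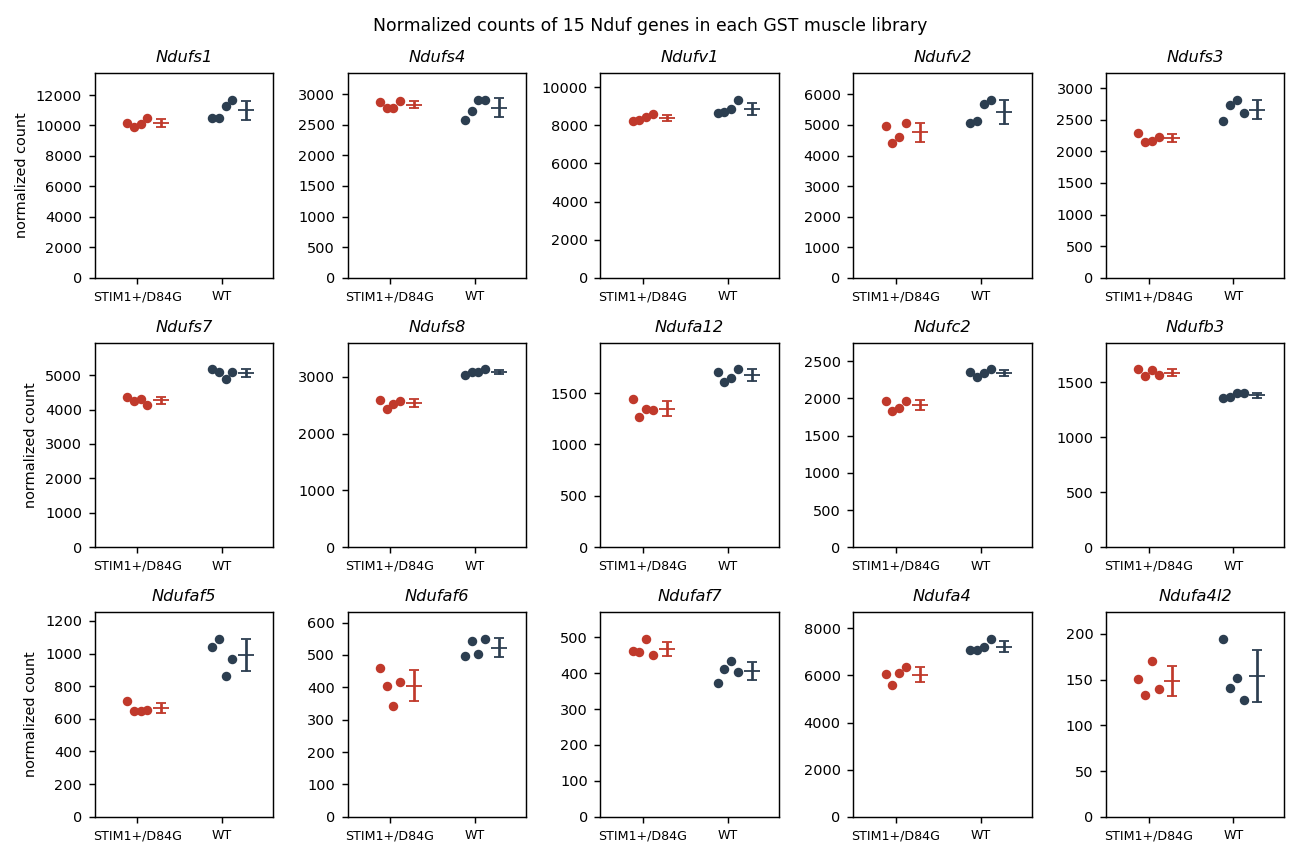
Normalized counts of 15 Nduf genes in each library (points), with the mean and SD of the group (n = 4) beside them, on axes that start at 0. STIM1+/D84G libraries lie below WT libraries without overlap on the deposited scale in Ndufv1, Ndufv2, Ndufs3, Ndufs7, Ndufs8, Ndufa12, Ndufc2, Ndufaf5, Ndufaf6 and Ndufa4, above them in Ndufb3 and Ndufaf7, and overlap with them in Ndufs1, Ndufs4 and Ndufa4l2.

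Among the 9 accessory subunits of the peripheral arm, 7 were lower and none was higher on the deposited scale (24.4% and 25.0% of all genes). The largest fall was that of Ndufa12, an accessory subunit of the NADH module, with 1446, 1265, 1346 and 1331 counts in STIM1+/D84G and 1709, 1609, 1648 and 1730.5 in WT libraries. The groups were well apart, with a log2 fold change of -0.31 (SE 0.0481, limma adjusted p = 0.000288), although it was 0.03 when libraries were scaled to the total. Ndufs4, a neighboring subunit whose loss causes Leigh syndrome in people, had 2867, 2777, 2778 and 2884 counts in STIM1+/D84G and 2583, 2720.2, 2907 and 2906 in WT libraries. Its values overlapped and did not pass, with a log2 fold change of 0.03 (limma adjusted p = 0.664). The other lower subunits of the NADH module were Ndufv3, Ndufa6, Ndufs6 and Ndufa7, and those of the quinone module were Ndufa9 and Ndufa5. Ndufa2, which has a thioredoxin-like fold, did not pass. Altogether the NADH module had 6 lower and 0 higher of 10 with a median of -0.15, and the quinone module 5 lower and 0 higher of 6 with a median of -0.19, whereas scaling to the total gave medians of 0.19 and 0.16.

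In the membrane arm, 12 of 19 Nduf subunits were lower and 1 was higher on the deposited scale, where 24.4% and 25.0% of all genes were. Scaling to the total gave 0 lower and 11 higher, where 4.93% and 61.4% of all genes were. Of the 9 subunits in the part of the membrane arm next to the peripheral arm, 5 were lower on the deposited scale. Their median was -0.23, and Ndufc2 fell the most. Ndufc2 had 1964, 1837, 1867 and 1961 counts in STIM1+/D84G and 2357, 2292, 2347 and 2389.5 in WT libraries. These groups were far apart relative to their spread, with a log2 fold change of -0.30 (SE 0.038, limma adjusted p = 7.84e-05) on the deposited scale and 0.05 when scaled to the total. On the deposited scale Ndufa1, Ndufc1, Ndufa3 and Ndufa11 fell by 14.9% to 18.7%, and Ndufa8, Ndufa10, Ndufa13 and Ndufs5 did not pass.

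Of the 10 subunits of the distal membrane arm, 7 were lower and 1 higher on the deposited scale (24.4% and 25.0% of all genes), with a median of -0.17. When scaled to the total, 0 were lower and 8 higher (4.93% and 61.4% of all genes). The distal subunits that fell on the deposited scale were Ndufb11, Ndufb8, Ndufb9, Ndufb6, Ndufb2, Ndufb10 and Ndufb7, and Ndufb4 and Ndufb5 did not pass. Ndufb2 was the 1 lower gene of the 26 whose groups overlapped, and its call was lost with the replicate number as a block. Ndufb3 (chr1:58586384-58595964 of GRCm38, plus strand), a small accessory subunit with a membrane-spanning helix, went the other way, with 1618, 1558, 1609.9 and 1564 counts in STIM1+/D84G and 1358, 1369, 1404 and 1404 in WT libraries. All mutant libraries lay above all WT libraries with little spread in either group, with a log2 fold change of 0.20 (SE 0.0362, limma adjusted p = 0.000974). Its log2 fold change was 0.55 when scaled to the total and 0.28 with quantile normalization. Of the 50-base windows of Ndufb3 exons, 6.72% also occur in another annotated gene, so a part of its reads may be shared.

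The 7 Nduf assembly factors spread the most, with an SD of 0.27 on the log2 scale, against 0.11 for the 36 complex I subunits. Ndufaf5 (chr2:140170649-140203689 of GRCm38, plus strand, protein-coding in GENCODE vM21) encodes an enzyme known in human cells to hydroxylate an arginine of NDUFS7 early in assembly. It had 712, 647, 649.7 and 656 counts in STIM1+/D84G and 1038, 1089.5, 863 and 967 in WT libraries. The mutant libraries lay far below the WT libraries, with a log2 fold change of -0.57 (SE 0.0705, limma adjusted p = 6.79e-05) on the deposited scale and -0.22 when scaled to the total, where it was the 1 Nduf gene still called lower. Ndufaf6, a factor whose loss impairs complex I in people, had 458, 403, 343 and 417 counts in STIM1+/D84G and 496, 545, 502 and 549.5 in WT libraries. It was lower without overlap, with a log2 fold change of -0.37 (SE 0.0835, limma adjusted p = 0.00338), and -0.03 when scaled to the total. Ndufaf7 (chr17:78937136-78948052 of GRCm38, plus strand), a methyltransferase of complex I assembly, had 461, 458, 496 and 451 counts in STIM1+/D84G and 373, 411, 435 and 404 in WT libraries. It was higher in each mutant library than in any WT library, with a log2 fold change of 0.20 (SE 0.0609, limma adjusted p = 0.0172). This call was lost without D84G replicate 3, where the log2 fold change was 0.17, and within 5 libraries that share a number in the names of their columns.

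Ndufaf2 is a paralog of Ndufa12 and holds its place in the complex during assembly. It had 198, 187, 183 and 198 counts in STIM1+/D84G and 169, 211, 189.8 and 161 in WT libraries, and these overlapped (log2 fold change 0.08, limma adjusted p = 0.524). Without WT replicate 2 the log2 fold change was 0.15, and without WT replicate 4 it was 0.02. The ratio of Ndufaf2 to Ndufa12 within a library holds no size factor, and was compared after the values were seen. It was 0.142 in STIM1+/D84G and 0.109 in WT (geometric means of 4), a log2 difference of 0.39, with no overlap between the groups. The two-sided exact permutation test gave p = 0.0286, the smallest that 4 against 4 allow, and 0.0571 after adjustment over the 2 ratios tested. With quantile normalization, which does not keep ratios within a library, the log2 difference was 0.15 (two-sided exact permutation p = 0.286). Of the 50-base windows of Ndufaf2 exons 64.1% occur elsewhere in annotated genes, as do 17.7% of those of Ndufa12, so the reads behind this ratio may be shared. Ndufaf1, Ndufaf3 and Ndufaf4, which act on early intermediates, did not pass.

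**Figure D5:**
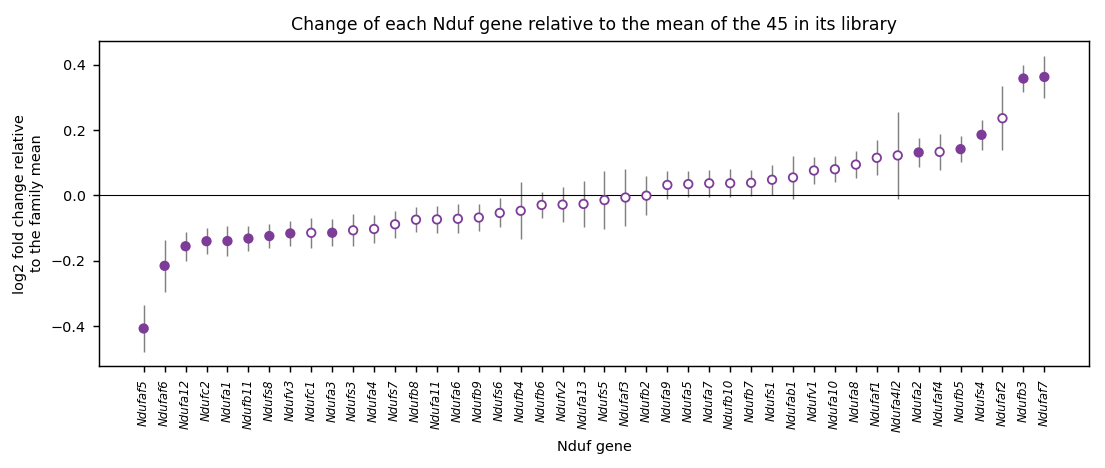
Each point is the log2 fold change of 1 Nduf gene (STIM1+/D84G over WT) after the mean log2 value of the 45 genes in a library was subtracted, with its standard error as the bar and filled where the adjusted p was under 0.05. Ndufaf5 is at -0.41, and Ndufb3 and Ndufaf7 are at 0.36, while 31 genes did not pass, 1 of them not shown.

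To describe the family without the scaling of the libraries, each gene was also set against the mean log2 value of the 45 genes in its own library, a step added after the data had been seen. By limma on these values, 9 genes lay below the family mean, 5 lay above it and 31 did not pass. Over all 15433 genes, 11.4% were lower and 37.2% higher by the same measure. The 9 were Ndufaf5, Ndufaf6, Ndufa12, Ndufc2, Ndufa1, Ndufb11, Ndufs8, Ndufv3 and Ndufa3, with log2 values of -0.41 to -0.11. The 5 were Ndufa2, Ndufb5, Ndufs4, Ndufb3 and Ndufaf7, with log2 values of 0.13 to 0.36. Ndufs4, which did not pass on the deposited scale, was at 0.19 by this measure (limma adjusted p = 0.00604).

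A pair of genes keep an Nduf name although their products are not complex I subunits. Ndufa4, now assigned to cytochrome c oxidase (complex IV), had 6041, 5607, 6121 and 6352 counts in STIM1+/D84G and 7069.6, 7084, 7204 and 7547 in WT libraries. It was lower without overlap on the deposited scale, with a log2 fold change of -0.26 (SE 0.0449, limma adjusted p = 0.000631), and 0.09 when scaled to the total. Its paralog Ndufa4l2, known as a gene induced by low oxygen, was the least abundant Nduf transcript, with 151, 133, 171 and 140.1 counts in STIM1+/D84G and 194, 141, 152 and 128 in WT libraries. WT replicate 1 was the highest and WT replicate 4 the lowest of all 8, and the log2 fold change was -0.04 (limma adjusted p = 0.837). The log2 ratio of Ndufa4l2 to Ndufa4 within a library was -5.35 ± 0.142 in STIM1+/D84G and -5.57 ± 0.290 in WT (SD, n = 4 each), and the difference of 0.22 did not pass (two-sided exact permutation p = 0.2). With quantile normalization the difference was -0.17 and did not pass. It was 0.35 without WT replicate 1 and 0.12 without WT replicate 4. With a library left out, the exact test has too few assignments to reach the threshold, so it cannot decide there. Ndufab1, the mitochondrial acyl carrier protein, which is also bound in complex I, did not pass.

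Counts per kilobase of annotated transcript allow levels to be set side by side between genes. On this scale the 45 genes spanned 159 to 9886 normalized counts per kilobase in STIM1+/D84G and 165 to 11846 in WT, with Ndufa4 at the top and Ndufa4l2 at the bottom in both. The medians were 2825 in STIM1+/D84G and 3274 in WT. The variation between libraries of a group was small, with a median coefficient of variation of 3.40% in STIM1+/D84G and 3.92% in WT over the 45 genes. D84G replicate 2 had the lowest value of its group in 32 of the 45 genes and WT replicate 4 the highest in 24. Without D84G replicate 2, 20 genes were lower on the deposited scale, and without WT replicate 4, 21. Across the 45 genes, the log2 fold change had a Spearman correlation of 0.28 with transcript length and -0.02 with the mean level, given as a description over genes that share their libraries.

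A number in the names of the table's columns splits the libraries into WT replicates 1 and 2 with D84G replicate 1, and the other 5, and its meaning is not stated. Within the 5 libraries, 3 STIM1+/D84G and 2 WT, 26 Nduf genes were lower and 1, Ndufb3, was higher on the deposited scale. Of all genes, 3155 were lower and 3342 higher within the same 5 libraries. The median of the Nduf genes was -0.19 there. Within the 3 libraries, with 1 STIM1+/D84G library and hence no test, the median was -0.09. With the number as a covariate the median over all 8 libraries was -0.16.

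The genes of complex I that lie on mitochondrial DNA were set beside the nuclear genes. Of the 7, 5 were listed and 4 of these fell on the deposited scale, where 24.4% of all genes were lower. The median log2 fold change of the 5 was -0.50, against -0.15 when scaled to the total and 0.03 with quantile normalization. When scaled to the total, 0 were lower and 0 higher, where 4.93% and 61.4% of all genes were. With quantile normalization 0 were lower and 1 was higher, where 26.8% and 20.1% of all genes were. Quantile normalization gives genes of equal rank equal values, so it leaves little room for a change in the most abundant genes, such as these. mt-Nd1, next to the peripheral arm, had 243425, 218152, 225055 and 238507 counts in STIM1+/D84G and 327619.5, 309529.5, 335716 and 345247 in WT libraries. mt-Nd2 had 209042, 185937, 193421 and 206059 counts in STIM1+/D84G and 279480.1, 266243, 289162 and 304167 in WT libraries, and mt-Nd5, the proton-pumping subunit at the tip of the arm, 234166, 219429, 225188 and 232816 in STIM1+/D84G and 296932, 302392, 334828 and 360372 in WT libraries. In these 3 the groups were far apart on the deposited scale, with log2 fold changes of -0.51, -0.52 and -0.50 (limma adjusted p = 0.000244, 0.000217 and 0.00053). When scaled to the total these were -0.16, -0.17 and -0.15 and did not pass (limma adjusted p = 0.0647, 0.0571 and 0.104). mt-Nd4 had 160013, 148659, 151401 and 155979.5 counts in STIM1+/D84G and 184261, 177861, 185955 and 195517 in WT libraries. Its log2 fold change was -0.27 on the deposited scale (limma adjusted p = 0.00444) and 0.08 when scaled to the total. mt-Nd6, on the other strand of mitochondrial DNA, had 13433, 13029, 13356 and 13931 counts in STIM1+/D84G and 13935, 12686, 15737 and 25059.6 in WT libraries. Its groups overlapped, WT replicate 4 was far above the rest, and the log2 fold change of -0.27 did not pass (limma adjusted p = 0.198). Without WT replicate 4 it was -0.07. Within the 5 libraries that share a column number it was -0.56 and passed (limma adjusted p = 0.0216, within 0.0216 to 0.729 over all alternatives). The WT libraries among these 5 are only WT replicates 3 and 4, so the outlying value weighs heavily there. Nuclear copies of mitochondrial DNA can share reads with these genes.

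Further assembly factors of complex I carry other names, and 12 of a list of 16 were among the genes tested. Of these, 6 were lower and 0 were higher on the deposited scale (24.4% and 25.0% of all genes), with a median of -0.16. Scaling to the total gave 0 lower and 7 higher (4.93% and 61.4% of all genes), with a median of 0.19. Tmem126a, which helps to build the distal membrane arm, had 1089, 1001, 983 and 1015 counts in STIM1+/D84G and 1303, 1488, 1351 and 1463 in WT libraries. The groups were well apart, with a log2 fold change of -0.45 (SE 0.0543, limma adjusted p = 5.1e-05) on the deposited scale and -0.11 when scaled to the total. On the deposited scale Ecsit and Timmdc1 fell as well.

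Acad9, Tmem126b and Tmem186 belong to the assembly complex that forms around mt-Nd2. They are given for the size of their change, so they do not stand for all members of that complex. Acad9, a relative of fatty acid dehydrogenases, had 802, 815, 842 and 834 counts in STIM1+/D84G and 984, 1014, 1054 and 948 in WT libraries. Tmem126b had 444, 542, 494 and 565 counts in STIM1+/D84G and 629, 613, 631 and 679 in WT libraries, and Tmem186 had 617, 606, 648 and 622 in STIM1+/D84G and 709, 785, 736 and 691 in WT libraries. All 3 were lower without overlap, with log2 fold changes of -0.28, -0.33 and -0.23 (limma adjusted p = 0.00044, 0.00406 and 0.00383) on the deposited scale, and of 0.07, 0.02 and 0.12 when scaled to the total. Ndufaf8, listed under the name 1810043H04Rik and matched by its identifier, had 315, 344, 317 and 331 counts in STIM1+/D84G and 360.2, 346, 333 and 328 in WT libraries, with overlap and a log2 fold change of -0.06 (limma adjusted p = 0.389).

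The nuclear genes of the other respiratory complexes, II to V, moved less on the deposited scale. Of 40 listed, 13 were lower and 2 were higher, with a median log2 fold change of -0.09. The 45 Nduf genes had 26 lower and 2 higher with a median of -0.17, where 24.4% and 25.0% of all genes were. When libraries were scaled to the total, 35 of the 40 and 28 of the 45 were higher, where 61.4% of all genes were. The medians were then 0.26 for the genes of complexes II to V and 0.18 for the Nduf genes. With quantile normalization 3 of the 40 were lower and 13 higher, where 26.8% and 20.1% of all genes were. The Nduf genes had 14 lower and 8 higher there. The difference between the lists was not tested.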

How the data were processed

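Poly(A) RNA of GST muscle was sequenced by the authors as 50-base paired reads. For the library kit, the labels name SMARTer and the paper's methods the Kapa Stranded mRNA Kit. The labels give mm10 as the build, and the aligner, counter and annotation are not given in the sources used here. The deposited signal values are reads per gene after division by a size factor of the library: within a tolerance of 0.01, 100.0% of the values were whole multiples of what 1 read is worth (0.783 to 0.964 in STIM1+/D84G and 1.02 to 1.21 in WT libraries), although the table is named after RPKM. The other 6 columns hold the authors' comparison, as deposited: a fold (ratio), its log2, 2 score columns (a standard error and a statistic) and 2 p-value columns. They were not used. The mutant libraries are labelled with a strain name, and the series title gave their genotype.

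After 0.1 was added, log2 normalized counts of all 15433 genes were fitted with lmFit and eBayes (with trend) of limma 3.58.1 under R 4.3.3, and p values were adjusted over all of them. A minimum mean of 0.5 removed no gene. Single ratios were tested with exact permutation over 70 assignments. Alternatives included edgeR 4.0.16 and DESeq2 1.42.0 on the recovered reads, other pseudocounts, filters and scalings, and leaving out each library. The fit was tested on simulated data. Both groups use replicate numbers 1 to 4. Deviations from the group means correlated between same-numbered libraries at 0.213, 0.161, 0.150 and 0.123 (10155 genes with a mean of at least 100), against -0.299 to 0.371 in the 12 other pairs of a mutant and a WT library. Of these 12, 5 share a number in their column names, and 3 of the 5 exceeded 0.123. The 7 that share neither number lay at -0.299 to -0.0686. D84G replicate 2 and WT replicate 2 share the replicate number alone and correlated at 0.161. The other same-numbered pairs also share the column number, so only this pair sets the replicate number apart from it. An alternative fit held the replicate number as a block. No source used here states that mice with the same number were paired. Coordinates and shared 50-base windows were taken from GENCODE vM21, to which all 45 genes matched.

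Values in every library are given for the 4 members with the largest fall and the 4 with the largest rise, the 7 core peripheral subunits, the highest and lowest member by mean, each Nduf assembly factor that passed, Ndufa4, Ndufa4l2, the mitochondrial genes and 4 other assembly factors by size of change. Ndufaf8 was added after its values were seen. The values of 1 member are not reported here. Members and lists were chosen with earlier results of these data known. P values measure the spread between these mice. Sequences are from RefSeq.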

Additional observations from a re-analysis of the deposited data

Results flagged for a closer look

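D84G replicate 1 had 712 normalized counts of Ndufaf5, whereas the other 3 STIM1+/D84G libraries had 647, 649.7 and 656. Its gap to the nearest of them was 0.858 of the range of the group, above Dixon's critical value for 4 samples. It was the 1 value to stand apart among 52 groups of 4 libraries that were looked at, and chance sets apart about 1 in 20 such groups. This library was still below every WT library, and without it the log2 fold change of Ndufaf5 was -0.60. The cause was not tested.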

How the results depend on the processing

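Scaling by the median of ratios, pseudocounts of 0.01 and 1, and the filter dropped or raised to a mean of 2 left the same 26 Nduf genes lower and 2 higher. edgeR gave 25 and 2, and DESeq2 27 and 2. With the replicate block, 26 were lower and 2 higher, with Ndufb2 lost and Ndufs1 added, and no other Nduf call changed. Nduf genes lower numbered 14 with all but the 50 most abundant genes, 1 with the total, 14 with quantile normalization and 9 relative to the Nduf mean, and those higher 4, 28, 8 and 5, with 1 higher within the 5 libraries of the same column number. Leaving out 1 library gave 20 to 28 lower and 1 to 2 higher. Over all genes, 9480 were higher and 761 lower with the total, and 2245 lower with all but the 50. The Nduf median was -0.050, 0.18 and -0.071 under these 3 scalings, -0.094 within the 3 libraries, and -0.20 to -0.15 with 1 library left out. The log2 ratio of Ndufaf2 to Ndufa12 was 0.32 to 0.48 with 1 library left out, where the exact test cannot reach 0.05, and 0.15 with quantile normalization, where that of Ndufa4l2 to Ndufa4 was -0.17. Calls of Ndufa5, Ndufa7, Ndufa9, Ndufb2, Ndufb10 and Ndufv2 were lost without at least 1 of the libraries other than D84G replicate 1, and that of Ndufaf7 without D84G replicate 3.

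The log2 fold change had the other sign in 39 of the 45 Nduf genes with the total, 14 with all but the 50 and 13 with quantile normalization. Among the genes given with values, those with the total were Ndufa12 0.034, Ndufc2 0.050, Ndufv1 0.27, Ndufv2 0.16, Ndufs1 0.24, Ndufs3 0.083, Ndufs7 0.10, Ndufs8 0.066, Ndufa4l2 0.31, Ndufa4 0.087, mt-Nd4 0.078, mt-Nd6 0.075, Tmem126b 0.023, Acad9 0.069 and Tmem186 0.12. With all but the 50 they were Ndufv1 0.040, Ndufs1 0.012 and Ndufa4l2 0.086. With quantile normalization they were Ndufaf2 -0.082, Ndufv1 0.13, Ndufs1 0.079, mt-Nd2 0.035, mt-Nd4 0.15 and mt-Nd5 0.029. Ndufs4 was -0.048 and Ndufa4l2 0.078 within the 5 libraries, mt-Nd6 0.015 within the 3, and Ndufa4l2 0.0023 with the column number as a covariate. With 1 library left out, Ndufs4 ranged from -0.0088 to 0.048 and Ndufa4l2 from -0.12 to 0.081. The cause was not tested.

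Each Nduf gene had at least 117 reads in each library, and the smallest log2 change that passed was -0.12. Several genes overlap another on the opposite strand (Ndufs3 with Kbtbd4, Ndufs1 with Eef1b2, Ndufa4l2 with Shmt2), and over 15% of the 50-base windows of 9 members also lie in other genes. Whether the counting used strand is not given in the sources used here, so such reads cannot be told apart.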
